A study of Mus musculus with 6 samples.

Results

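Slc8a1, Atp1b1, Atp1b2, Fxyd1, Atp2b1 and Atp2b4, genes that move sodium and calcium across the cardiomyocyte surface membrane, were compared between SRAKO and WT mouse hearts. Of the 25901 table rows the genes take up 7, because Slc8a1 has 2 rows. Every row carrying a member's symbol was collected, both Slc8a1 rows were kept, and any other gene was taken from its row with the highest mean. The genes had been picked with the SRAKO and WT values of these hearts in view, so the differences between genotypes are given below as a description and support nothing by themselves. Whole-heart poly(A) RNA was measured in 3 SRAKO hearts (SRAKO2365, SRAKO2371 and SRAKO2372) and 3 WT hearts (WT2368, WT2379 and WT2378). All 6 hearts, in both genotypes, came from mice given isoproterenol for 4 weeks, a drug that stimulates beta-adrenergic receptors and makes the heart grow. SRAKO names a knockout of SRA, the steroid receptor RNA activator made by the gene Sra1. How the allele was built, and whether it was lost in all cells, is not given in the sources used here. They give no age, sex or strain beyond the genotype, and untreated hearts were not analysed here.

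Calcium that enters a cardiomyocyte during a beat has to leave again before the next. Most of it leaves through NCX1, the sodium-calcium exchanger encoded by Slc8a1, which trades calcium for sodium and can run in either direction. The exchanger works on the sodium gradient that the Na,K-ATPase keeps up with its catalytic alpha and its beta subunits, and phospholemman, encoded by Fxyd1, holds that pump back until it is phosphorylated under beta-adrenergic drive. Plasma membrane calcium ATPases such as those of Atp2b1 and Atp2b4 carry a smaller calcium flow and are known for local signalling.

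SRAKO and WT hearts did not overlap for Atp1b1 and, in the weaker of its rows alone, for Slc8a1. No other member with a promoter in the reference table had this, so the promoters of Slc8a1 and Atp1b1 are shown. Both are the 250 bases before the RefSeq start on GRCm38.p6, read 5′ to 3′ on the gene's own minus strand, for Slc8a1 at chr17:81738388-81738637 and for Atp1b1 at chr1:164458356-164458605. Capitals mark the motif matches described next.
Slc8a1: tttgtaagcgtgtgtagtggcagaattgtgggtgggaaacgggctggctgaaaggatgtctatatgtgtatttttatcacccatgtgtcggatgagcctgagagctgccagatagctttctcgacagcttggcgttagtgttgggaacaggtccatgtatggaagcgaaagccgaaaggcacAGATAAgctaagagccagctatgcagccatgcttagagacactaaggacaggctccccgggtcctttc
Atp1b1: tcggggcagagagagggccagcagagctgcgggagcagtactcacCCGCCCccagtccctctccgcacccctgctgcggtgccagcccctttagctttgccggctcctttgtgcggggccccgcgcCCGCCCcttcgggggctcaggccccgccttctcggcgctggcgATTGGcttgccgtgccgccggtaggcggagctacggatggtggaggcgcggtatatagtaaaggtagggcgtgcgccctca
Both strands were searched for these short motifs. The GATA motif was spelled AGATAA or its complement TTATCT. The E-box was spelled CAGCTG, which reads alike on either strand. The promoter element named for its TATA core was spelled TATAAA or its complement TTTATA. The CAAT element was spelled CCAAT or its complement ATTGG. The GC box was spelled GGGCGG or its complement CCGCCC. The Slc8a1 window held 1 match, a GATA motif that begins 68 bases before the start, and 9.99% of the 32851 mouse promoters of this length hold one. The Atp1b1 window held 2 GC boxes and 1 ATTGG, found in 32.7% and 33.8% of promoters, and no match overlapped another. The windows also differed in base composition, with a GC content of 50.4% for Slc8a1 and 70.4% for Atp1b1 against a median of 52.4% over all promoters. A match is a string of letters and not a measured site. RefSeq windows were present for 5 of the 6 members.

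Values are FPKM, read coverage scaled by transcript length and by library size, as the authors deposited it. Differences were tested with limma on log2(FPKM + 1) over the 10201 rows that reached an FPKM of 1 in at least 3 hearts, with Benjamini-Hochberg adjustment and a threshold of 0.05. Sra1 itself was 1.96, 1.78 and 2.05 FPKM in SRAKO2365, SRAKO2371 and SRAKO2372, against 4.40, 6.31 and 4.23 FPKM in WT2368, WT2379 and WT2378. Each SRAKO heart was below every WT heart, with a log2 difference of -1.01 (SE 0.14). Its limma Benjamini-Hochberg adjusted p was 0.258, and the exact permutation p (two-sided) was 0.1, which is the lower limit for groups of 3. The row takes in a transcript of the neighbouring gene Apbb3 as well. The deposited values carry no read counts. The commonest product of low FPKM and transcript length, read as a fixed amount of sequence, gave relative depths of 1.31 to 1.58 in SRAKO hearts and 1 to 1.42 in WT hearts, and that reading was not checked. Genes listed as ventricular cardiomyocyte markers were tested for 10 of 10 and summed to 22162 to 25122 FPKM in SRAKO hearts and 22575 to 24639 FPKM in WT hearts. Mb and Actc1 had the highest means among them, 7309 and 5055 FPKM over the 6 hearts. Whether the list tells ventricular from atrial cells was not tested.

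Over the 6 hearts, the members differed widely in level per kilobase. Fxyd1 was highest at a mean of 93.9 FPKM, and Atp1b1 (58.1 FPKM) and the more abundant Slc8a1 row (53.2 FPKM) followed with overlapping ranges. The weaker Slc8a1 row averaged 17.3 FPKM, Atp1b2 averaged 6.75 FPKM, Atp2b4 averaged 2.64 FPKM and Atp2b1 averaged 0.959 FPKM. Apart from Atp1b1 and the more abundant Slc8a1 row, no neighbours in this order overlapped in any of the 6 hearts.

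**Figure D1:**
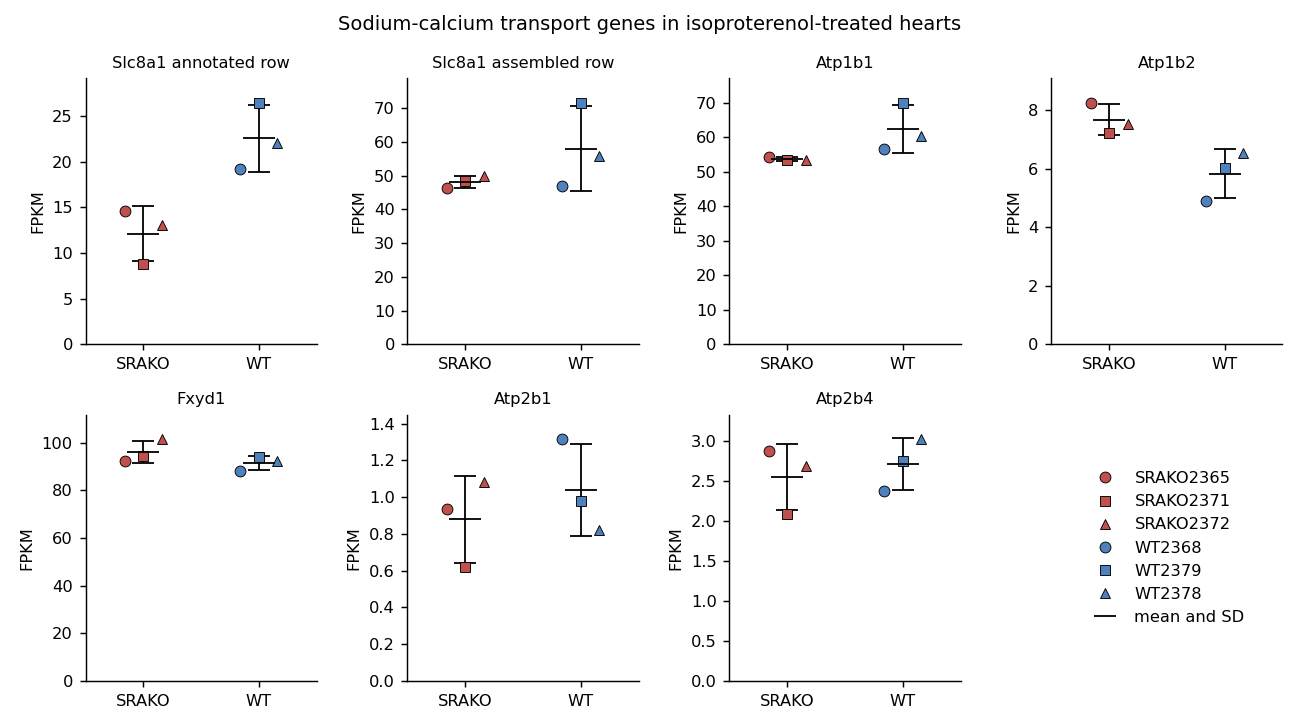
Each panel plots the FPKM of 1 table row in 3 SRAKO hearts (red) and 3 WT hearts (blue), with the mean as a horizontal bar and the SD as whiskers, on axes that start at 0. The genotypes do not overlap for the annotated Slc8a1 row, Atp1b1 and Atp1b2, and overlap for the other 4 rows.

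None of the 6 member rows that could be tested passed the threshold (limma, Benjamini-Hochberg adjusted p = 0.999 for each). Over all rows 2 did, 0.0196% of those tested. At an unadjusted p under 0.05 there were 2 member rows, the annotated Slc8a1 row and Atp1b2, where 3.46% of all tested rows reached that level, 1.56% as lower and 1.9% as higher in SRAKO. The genotypes did not overlap in 3 of the 6 tested member rows, 2 of them lower and 1 higher in SRAKO, against 8.05% of all tested rows, 3.76% lower and 4.28% higher. Since the members were chosen on this contrast, nothing is read from these counts. The tested member rows had a median log2 difference of -0.14, and all tested rows had 0.01. Atp2b1 stayed below the filter and has no test.

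Slc8a1 was lower in SRAKO hearts in the row built from its annotated transcripts and differed less in its second row. The annotated row (locus MSTRG.4357) joins 3 transcripts on the minus strand of chromosome 17 from 81388524 to 81738377. It was 14.6, 8.75 and 13.0 FPKM in SRAKO2365, SRAKO2371 and SRAKO2372, against 19.1, 26.5 and 22.0 FPKM in WT2368, WT2379 and WT2378. The genotypes did not overlap, SRAKO2371 stood lowest and WT2379 stood highest. Mean FPKM was 12.1 ± 3.02 in SRAKO hearts and 22.6 ± 3.69 in WT hearts (SD, n = 3 each), which puts SRAKO at 53.7% of WT. The log2 difference was -0.86 (SE 0.19), it ran from -0.998 without SRAKO2365 to -0.66 without SRAKO2371, and it missed the threshold (limma, Benjamini-Hochberg adjusted p = 0.999). In the same whole-heart RNA, summed ventricular cardiomyocyte markers in SRAKO hearts averaged 101.7% of WT, with 6 of 10 genes higher and 4 lower. Whether the Slc8a1 difference lies in cardiomyocyte number or in Slc8a1 RNA per cardiomyocyte was not tested.

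The second row (locus MSTRG.4356) holds 1 transcript assembled by StringTie that carries the symbol Slc8a1 and no annotated identifier. It was 46.4, 48.5 and 49.8 FPKM in SRAKO2365, SRAKO2371 and SRAKO2372, against 46.8, 71.7 and 55.7 FPKM in WT2368, WT2379 and WT2378. All SRAKO hearts and WT2368 lay close together, the other two WT hearts lay above them, and the genotypes overlapped through WT2368. Mean FPKM was 48.2 ± 1.76 in SRAKO hearts and 58.1 ± 12.6 in WT hearts (SD, n = 3 each), 83.0% of WT. The log2 difference was -0.24 (SE 0.16; limma, Benjamini-Hochberg adjusted p = 0.999). It was -0.08 without WT2379 and -0.38 without WT2368.

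The table gives no coordinates for the assembled transcript. Its locus number falls between Morn2 (number 4354, chromosome 17 from 80290212 to 80297473) and the annotated Slc8a1 row (number 4357), and locus numbers followed start positions in 92.96% of 9389 adjacent pairs on a chromosome. Slc8a1 is read on the minus strand, so smaller coordinates lie towards its 3′ end. The annotated row's transcripts are little more than coding sequence: each holds 2910 coding bases, and they end 0 to 167 bases after the stop codon. GENCODE M21 lists 6 Slc8a1 transcripts, and one that is not in the row has a 3′ UTR of 15586 bases that reaches down to position 81373105. Whether the assembled transcript is that 3′ UTR was not tested, because its position is not in the table. The predicted gene Gm11096 overlaps the annotated row on the plus strand, and the labels name no stranded kit.

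Because the rows behaved unequally, the share of Slc8a1 signal in the annotated row differed between genotypes. If both rows come from the same RNA, which was not tested, the summed FPKM used here and below counts it more than once. That share was 23.9%, 15.3% and 20.7% of summed Slc8a1 FPKM in SRAKO2365, SRAKO2371 and SRAKO2372, against 29.0%, 27.0% and 28.4% in WT2368, WT2379 and WT2378. Every SRAKO heart was below every WT heart, the WT hearts lay within a narrow band, and SRAKO2371 was again lowest. The mean share differed by -8.13 percentage points, SRAKO minus WT, and by -10.1 to -5.79 points with hearts left out one at a time. Without WT2368 and SRAKO2371 it differed by -5.33 points. The assembled row exceeded the annotated row 3.18-fold to 5.54-fold in SRAKO hearts and 2.45-fold to 2.71-fold in WT hearts. A pair of 1 annotated and 1 purely assembled row, both tested, existed for 26 genes. The gap between their log2 differences ranked number 4 in size for Slc8a1 (-0.62, annotated minus assembled, against a median size of 0.20). Slc8a1 was chosen on this contrast, so neither its rank nor the difference in share is a separate result.

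Summed over its rows, Slc8a1 was 60.9, 57.2 and 62.9 FPKM in SRAKO2365, SRAKO2371 and SRAKO2372, against 65.9, 98.2 and 77.8 FPKM in WT2368, WT2379 and WT2378. The genotypes did not overlap, but the nearest hearts, SRAKO2372 and WT2368, lay close together. The sum in SRAKO hearts averaged 74.8% of WT, and its log2 difference was -0.39, closer to 0 than the annotated row's. Set against Atp2a2, the calcium pump SERCA2a of the sarcoplasmic reticulum, summed Slc8a1 was 0.0440, 0.0443 and 0.0446 in SRAKO2365, SRAKO2371 and SRAKO2372, against 0.0595, 0.0653 and 0.0545 in WT2368, WT2379 and WT2378. This ratio did not overlap between genotypes and was nearly constant among SRAKO hearts. It reuses the Slc8a1 values chosen on this contrast and is no separate result. Atp2a2 itself averaged 1361 ± 61.7 FPKM in SRAKO hearts and 1346 ± 209 FPKM in WT hearts (SD, n = 3 each).

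**Figure D2:**
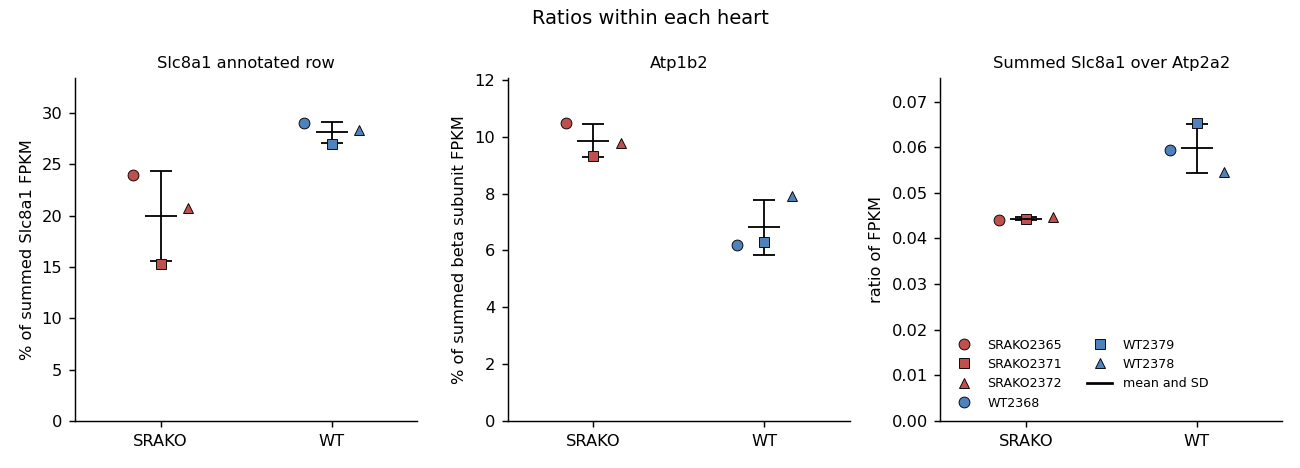
Points are single hearts (SRAKO red, WT blue) with the mean and SD: the annotated row as a percent of summed Slc8a1 FPKM, Atp1b2 as a percent of summed beta subunit FPKM, and the ratio of summed Slc8a1 to Atp2a2 FPKM. SRAKO hearts lie at 15.3% to 23.9%, 9.33% to 10.5% and 0.0440 to 0.0446, and WT hearts at 27.0% to 29.0%, 6.20% to 7.92% and 0.0545 to 0.0653.

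Single hearts that stood apart for Slc8a1 stood apart in other markers too. SRAKO2371, lowest in the annotated Slc8a1 row, had the highest summed adipocyte markers, 466 FPKM, where the range was 149.8 to 466 FPKM in SRAKO hearts and 143 to 176 FPKM in WT hearts. The adipocyte sum of SRAKO2365, 149.8 FPKM, lay within the WT range. Of those 10 markers 9 were tested, and all 9 had a higher mean in SRAKO. WT2379, highest in both Slc8a1 rows and in Atp1b1, had 8565 FPKM of summed atrial cardiomyocyte markers, where the range was 3049 to 3591 FPKM in SRAKO hearts and 2553 to 8565 FPKM in WT hearts. The other WT hearts, at 2553 FPKM (WT2368) and 3828 FPKM (WT2378), lay on either side of the SRAKO hearts. All 10 atrial markers were tested and had a lower mean in SRAKO, and no marker of either list was at 0 in all hearts. The part of adipocyte or atrial tissue in the Slc8a1 values was not tested. Without WT2368 and SRAKO2371, the hearts with the highest values in a ribosomal RNA row (3003 FPKM in SRAKO2371 and 6242 FPKM in WT2368), the annotated Slc8a1 difference was -0.77 and that of the assembled row was -0.39.

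The beta subunits of the Na,K-ATPase, which the pump needs to fold and to reach the membrane, stood apart in opposite directions. Atp1b1 encodes beta-1, the main cardiac form (locus MSTRG.518, chromosome 1 from 164437109 to 164458355, minus strand). It was 54.4, 53.5 and 53.4 FPKM in SRAKO2365, SRAKO2371 and SRAKO2372, against 56.6, 70.1 and 60.4 FPKM in WT2368, WT2379 and WT2378. The SRAKO hearts were nearly equal, each lay below every WT heart, and WT2368 was only just above them. Mean FPKM was 53.8 ± 0.564 in SRAKO hearts and 62.4 ± 6.98 in WT hearts (SD, n = 3 each), and the log2 difference of -0.20 (SE 0.11) was -0.12 without WT2379. Nme7 overlaps the last 617 bases of Atp1b1 on the opposite strand and was at most 0.339 FPKM in any heart.

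Atp1b2 encodes beta-2, first described as an adhesion molecule on glia (locus MSTRG.1516, chromosome 11 from 69599736 to 69605942, minus strand). It was 8.26, 7.23 and 7.54 FPKM in SRAKO2365, SRAKO2371 and SRAKO2372, against 4.90, 6.04 and 6.55 FPKM in WT2368, WT2379 and WT2378. Each SRAKO heart lay above every WT heart. Mean FPKM was 7.68 ± 0.528 in SRAKO hearts and 5.83 ± 0.843 in WT hearts (SD, n = 3 each), 132% of WT. The log2 difference was 0.35 (SE 0.12; limma, Benjamini-Hochberg adjusted p = 0.999), and it was 0.25 without WT2368. Schwann cell and neuron markers, of which 2 of 10 were tested, summed to 5.43 to 14.4 FPKM in SRAKO hearts and 6.75 to 7.87 FPKM in WT hearts, and the part of such cells in the Atp1b2 values was not tested.

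Within the beta subunit pool of Atp1b1, Atp1b2 and Atp1b3, Atp1b2 took 10.5%, 9.33% and 9.80% in SRAKO2365, SRAKO2371 and SRAKO2372, against 6.20%, 6.31% and 7.92% in WT2368, WT2379 and WT2378. Atp1b1 took 69.1%, 69.0% and 69.4% in the SRAKO hearts, against 71.6%, 73.2% and 73.1% in the WT hearts, in the same order. Neither share overlapped between genotypes. The beta pool held a larger part of Atp1b2 and a smaller part of Atp1b1 in all SRAKO hearts, while Atp1b1 was the main form in all 6 hearts. Both genes were chosen on this contrast and each already differed in level, so the shares are no separate result. Atp1b3, the beta-3 subunit, averaged 16.3 ± 0.420 FPKM in SRAKO hearts and 17.6 ± 1.93 FPKM in WT hearts, with overlap.

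Fxyd1 (locus MSTRG.8642, chromosome 7 from 31051678 to 31057199, minus strand) was 92.4, 94.5 and 101.5 FPKM in SRAKO2365, SRAKO2371 and SRAKO2372, against 88.3, 94.1 and 92.4 FPKM in WT2368, WT2379 and WT2378. SRAKO2372 was highest and the rest overlapped. Mean FPKM was 96.1 ± 4.76 in SRAKO hearts and 91.6 ± 2.99 in WT hearts (SD, n = 3 each), with a log2 difference of 0.07 (SE 0.10).

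The calcium ATPases of the surface membrane were the least abundant members, and the genotypes overlapped for both. Atp2b4 encodes PMCA4, a pump known to bind neuronal nitric oxide synthase (chromosome 1 from 133699457 to 133801041, minus strand). It was 2.88, 2.09 and 2.69 FPKM in SRAKO2365, SRAKO2371 and SRAKO2372, against 2.38, 2.76 and 3.03 FPKM in WT2368, WT2379 and WT2378. Mean FPKM was 2.55 ± 0.414 in SRAKO hearts and 2.72 ± 0.327 in WT hearts (SD, n = 3 each). Its log2 difference of -0.07 (SE 0.12) turned to 0.03 without SRAKO2371, the heart with the lowest value. Atp2b1 encodes PMCA1, the widespread form of the pump (chromosome 10 from 98914406 to 99026143, plus strand). It was 0.937, 0.620 and 1.08 FPKM in SRAKO2365, SRAKO2371 and SRAKO2372, against 1.32, 0.981 and 0.821 FPKM in WT2368, WT2379 and WT2378, and it reached an FPKM of 1 in 2 hearts. SRAKO2371 was again lowest. Summed Slc8a1 exceeded the sum of these pumps 15.96-fold to 21.1-fold in SRAKO hearts and 17.9-fold to 26.2-fold in WT hearts, ranges that overlap. The Slc8a1 sum may count the same RNA more than once, and the annotated row alone averaged 17.3 FPKM over the 6 hearts.

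The other genes of the pathway were taken from 6 lists of 117 genes, of which 114 had a table row and 83 were tested. None passed the threshold (limma, Benjamini-Hochberg adjusted p = 0.999 for each gene named here). Without WT2379, 1 of the tested list genes passed. At an unadjusted p under 0.05 there were 3 list genes, 1 higher and 2 lower in SRAKO. Of all tested rows 3.46% reached that level, 1.56% as lower and 1.9% as higher. Tested list genes named below were picked for the smallest unadjusted p or the highest mean FPKM. The genotypes did not overlap in 8.05% of all tested rows, 3.76% lower and 4.28% higher in SRAKO. Of the other Na,K-ATPase and FXYD genes 6 of 16 were tested, 3 higher and 3 lower, with a median log2 difference of 0.02. Fxyd5, a relative of phospholemman in a row shared with Mir7050, averaged 6.39 ± 0.0771 FPKM in SRAKO hearts and 5.88 ± 1.39 FPKM in WT hearts. Nkain1, whose product binds the beta-1 subunit, averaged 1.45 ± 0.214 FPKM in SRAKO hearts and 1.34 ± 0.111 FPKM in WT hearts. Both of these genes overlapped between genotypes.

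Of the other exchangers and calcium pumps 3 of 12 were tested, 1 higher and 2 lower, with a median log2 difference of -0.04. Slc8b1, the mitochondrial sodium-calcium exchanger NCLX, averaged 2.78 ± 0.375 FPKM in SRAKO hearts and 2.73 ± 0.200 FPKM in WT hearts. Bsg and Nptn encode basigin and neuroplastin, auxiliary subunits of the plasma membrane calcium ATPases. Bsg averaged 309 ± 32.7 FPKM in SRAKO hearts and 317 ± 11.99 FPKM in WT hearts, and Nptn averaged 6.74 ± 0.171 FPKM in SRAKO hearts and 7.004 ± 0.280 FPKM in WT hearts. The sister exchangers Slc8a2 and Slc8a3, of nerve and skeletal muscle, stayed below the filter, at no more than 0.361 FPKM and 0.136 FPKM in any heart. Slc8a1 was the sodium-calcium exchanger gene with the highest FPKM in all 6 hearts.

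Among genes of sodium entry and acid-base transport, 18 of 24 were tested, 11 higher and 7 lower, with a median of 0.02. Slc12a7, the potassium-chloride cotransporter KCC4, averaged 7.07 ± 1.33 FPKM in SRAKO hearts and 9.06 ± 0.514 FPKM in WT hearts, with a log2 difference of -0.33 and overlap between genotypes. Slc9a3r2, a scaffold protein of membrane transporters, averaged 50.6 ± 0.949 FPKM in SRAKO hearts and 43.7 ± 4.40 FPKM in WT hearts, without overlap. The bicarbonate cotransporter gene Slc4a4 averaged 1.09 ± 0.163 FPKM in SRAKO hearts and 0.896 ± 0.185 FPKM in WT hearts.

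Among anchors and phosphorylation control of the exchanger and the pump, 23 of 26 were tested, 10 higher and 13 lower, with a median of -0.02. Calm3, a calmodulin gene, averaged 55.3 ± 1.71 FPKM in SRAKO hearts and 55.6 ± 3.47 FPKM in WT hearts. Prkar2a, a regulatory subunit of protein kinase A, averaged 6.34 ± 0.416 FPKM in SRAKO hearts and 7.33 ± 0.333 FPKM in WT hearts. Sptan1, the spectrin of the membrane skeleton, averaged 15.7 ± 0.744 FPKM in SRAKO hearts and 17.97 ± 0.783 FPKM in WT hearts, and neither it nor Prkar2a overlapped between genotypes. Ppp1ca, a catalytic subunit of protein phosphatase 1, averaged 115 ± 3.11 FPKM in SRAKO hearts and 105 ± 14.8 FPKM in WT hearts.

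Among genes of calcium entry and of release and uptake by the sarcoplasmic reticulum, 23 of 26 were tested, 10 higher and 13 lower, with a median of -0.02. Cacna2d1, an auxiliary subunit of the L-type calcium channel, averaged 4.35 ± 0.309 FPKM in SRAKO hearts and 2.86 ± 0.884 FPKM in WT hearts, without overlap and with a log2 difference of 0.50, which was 0.29 without WT2368. Cacnb2, the channel's beta subunit, averaged 2.39 ± 0.353 FPKM in SRAKO hearts and 3.33 ± 0.871 FPKM in WT hearts, with overlap. Itpr1, an inositol trisphosphate receptor, averaged 1.03 ± 0.145 FPKM in SRAKO hearts and 1.2996 ± 0.0160 FPKM in WT hearts, without overlap. Hrc, the histidine-rich calcium-binding protein of the reticulum, averaged 299 ± 10.04 FPKM in SRAKO hearts and 319 ± 19.9 FPKM in WT hearts.

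Among regulators of cardiac transcription and splicing, 10 of 13 were tested, 4 higher and 6 lower, with a median of -0.03. Srf, the serum response factor, averaged 24.5 ± 0.831 FPKM in SRAKO hearts and 28.3 ± 4.89 FPKM in WT hearts. Rbm20, a splicing factor of cardiac muscle, averaged 20.1 ± 1.56 FPKM in SRAKO hearts and 22.8 ± 4.72 FPKM in WT hearts, and the splicing factor gene Rbfox2 averaged 8.82 ± 1.05 FPKM in SRAKO hearts and 9.55 ± 0.515 FPKM in WT hearts. The genotypes overlapped for all 3.

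**Figure D3:**
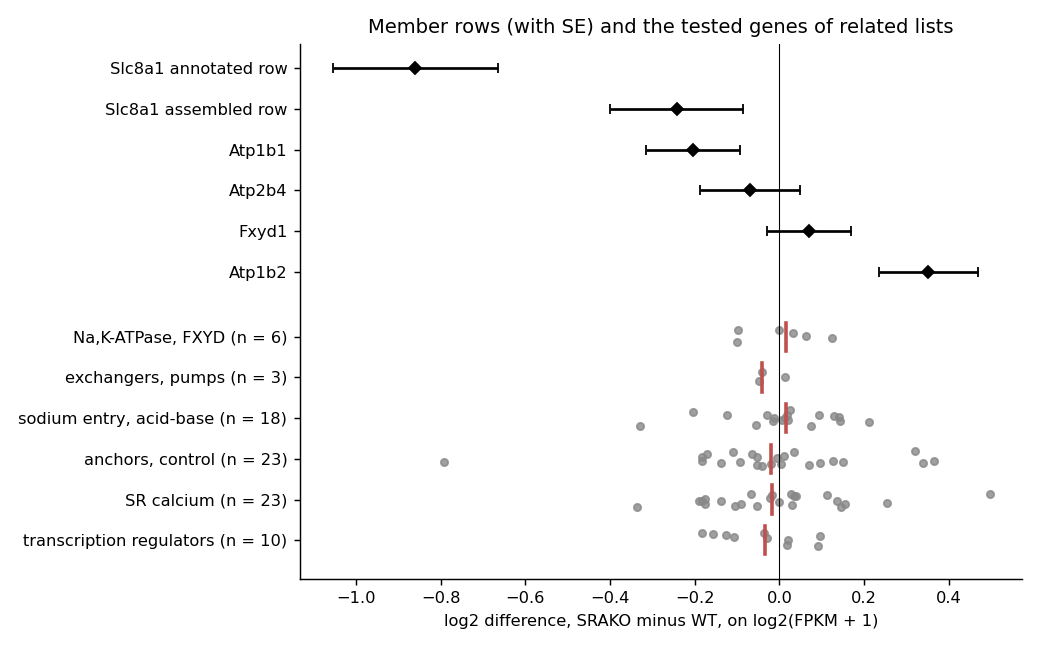
Black diamonds are the log2 differences, SRAKO minus WT, of the 6 tested member rows with their SE, grey points are the tested genes of each related list, and red bars are list medians. The annotated Slc8a1 row lies at -0.86 and Atp1b2 at 0.35, and the list medians lie between -0.04 and 0.02.

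The Slc8a1 rows also had different companions across hearts. Likeness was taken as the mean absolute difference between log2(FPKM + 1) values centred on each row's mean over the 6 hearts, among 8877 tested rows with a single symbol that is no predicted model. Nearest to the annotated row were Golga1 (0.16), a golgin, Sra1 (0.19), the microRNA gene Mir7026 (0.19), Pafah1b1 (0.20), the dynein regulator LIS1, and Entpd4b (0.20), a nucleotidase whose near-identical copy may share its reads. The median row lay at 0.44, and the assembled Slc8a1 row lay at 0.32 and ranked 217th. The hearts and the genotype contrast on which the annotated row was chosen are the same in these profiles, so the nearness of rows lower in SRAKO is no separate result.

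Nearest to the assembled row were Sdc1 (0.04), which encodes the surface proteoglycan syndecan-1, Frmd5 (0.04), a membrane-linked FERM protein, Tmcc3 (0.05), Smad1 (0.05), a transducer of bone morphogenetic proteins, and Synm (0.05), the intermediate filament protein synemin. The median row lay at 0.18. These companions, like the assembled row, were highest in WT2379 and next highest in WT2378. The annotated Slc8a1 row ranked 8381st from the assembled one. The distance is the same in both directions (0.32), but the assembled row varied less between hearts. Its mean absolute deviation was 0.18, against 0.43 for the annotated row. Both Slc8a1 rows were highest in WT2379 and next highest in WT2378.

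**Figure D4:**
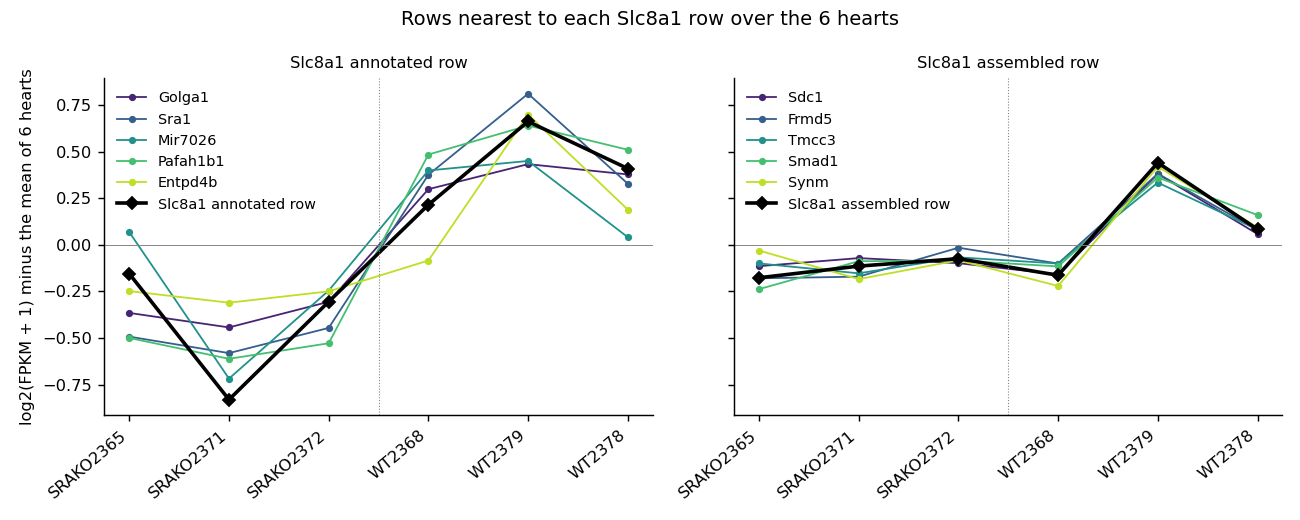
Lines show log2(FPKM + 1) minus the mean of 6 hearts for each Slc8a1 row (black) and its 5 nearest rows (colours), with SRAKO hearts left of the dotted line and WT hearts right of it. The annotated row is lowest in SRAKO2371 and highest in WT2379, and the assembled row stands out in WT2379.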

How the data were processed

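Groups were taken from the sample titles, which number each heart. The labels do not say that the hearts came from separate animals, so p-values measure the spread between these samples. The authors deposited FPKM per gene in a table of 25901 rows. The tools are named in the submitters' processing notes as StringTie 1.3.4d, HISAT2 2.0.4, cutadapt 1.9 and edgeR without a version. As genome build they list hg38, which is human, whereas the identifiers are those of mouse genes, and the build aligned to is not given in the sources used here. Of 81263 transcript identifiers 99.6% matched GENCODE M21 on GRCm38, which gave positions. StringTie can merge neighbouring genes into 1 locus, FPKM carries no read counts, and no strandedness is stated.

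Here, log2(FPKM + 1) was fitted by genotype alone in R 4.3.3 with limma 3.58.1, with a variance trend and a two-sided moderated test, for the 10201 rows that reached an FPKM of 1 in 3 or more of 6 hearts. Log2 differences are SRAKO minus WT on that scale, where changes of weakly expressed genes come out smaller. On simulated data from these 10201 rows, limma called 88.8% of rows changed 2-fold, 99.2% of rows changed 4-fold and 0.104% of unchanged rows over 20 draws. The draws used independent normal noise and many planted changes, which make the adjusted threshold easier to pass. These shares therefore do not say how often a real change of that size would be called here. Among the real rows Sra1, at a log2 difference of -1.01, was not called. Alternatives were another pseudocount, other filters, median-of-ratios scaling, quantile normalization, no variance trend, array weights, both Slc8a1 rows summed and hearts left out.

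The members, lists and tests were chosen with earlier results of these data known. Genes named are the members, Sra1, from each list up to 3 tested genes with the smallest unadjusted p and the 2 with the highest mean FPKM, and the 5 rows nearest to each Slc8a1 row. Cell type markers were 11 lists. Levels between genes are compared as FPKM, that is per kilobase. Some genes that this rule takes in are not reported here.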

Additional observations from a re-analysis of the deposited data

How the results depend on the processing

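None of the 6 tested member rows passed the threshold of limma with Benjamini-Hochberg adjustment under any alternative that was run. The annotated Slc8a1 row ranged from -0.998 to -0.39, the last with both Slc8a1 rows summed, with a smallest adjusted p = 0.434. The assembled row ranged from -0.39 to -0.08, Atp1b1 from -0.27 to -0.12, Atp1b2 from 0.25 to 0.43 and Fxyd1 from 0.03 to 0.10. Of all rows 2 were called in the fit as reported, 1 with a pseudocount of 0.1, 0 with no filter, 1 with a filter at FPKM 5, 0 without WT2368 and SRAKO2371, and 0 to 7 with hearts left out one at a time. Related list genes called numbered 0, and 0 to 1 when each heart was left out; the 1 came without WT2379. The sign turned for 7 small differences. With hearts left out singly, Atp2b4 ran from -0.14 to 0.028, Nkain1 from -0.00093 to 0.13, Slc8b1 from -0.061 to 0.081, Atp2a2 from -0.11 to 0.11, Calm3 from -0.056 to 0.027, Fxyd5 from -0.022 to 0.27 and Bsg from -0.12 to 0.022. With array weights Slc8b1 was -0.038, Atp2a2 -0.063 and Fxyd5 -0.0090. Without WT2368 and SRAKO2371 Slc8b1 was -0.082, Atp2a2 -0.069 and Fxyd5 -0.030. The cause of these turns was not tested. No paired analysis was made because the labels give no batch, litter or pairing of hearts. FPKM without counts gives no counting error for low genes such as Atp2b1, and 3 hearts a genotype limit every difference.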

Other observations

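Other cell type markers varied between hearts as follows, and their part in the transporter values was not tested. Macrophage and monocyte markers, tested for 10 of 10 genes, had a higher mean in SRAKO for 9 and summed to 238 to 262 FPKM in SRAKO hearts and 196 to 236 FPKM in WT hearts, without overlap. Smooth muscle and pericyte markers, 8 of 10 with a higher mean in SRAKO, summed to 381 to 387 FPKM in SRAKO hearts and 315 to 396 FPKM in WT hearts. Fibroblast markers summed to 539 to 568 FPKM in SRAKO hearts and 404 to 573 FPKM in WT hearts. Endothelial markers summed to 193 to 212 FPKM in SRAKO hearts and 195 to 214 FPKM in WT hearts. By log2 difference, 6 of 10 fibroblast and 7 of 10 endothelial genes were lower in SRAKO, and the rest were higher. Neutrophil markers, of which 4 of 10 were tested, ranged from 3.69 to 69.1 FPKM in SRAKO hearts and from 1.33 to 13.4 FPKM in WT hearts. All 4 tested neutrophil genes were higher in SRAKO, all 5 tested red blood cell genes were lower, and none passed the threshold. Red blood cell markers, 5 of 10 tested, ranged from 1071 to 2426 FPKM in SRAKO hearts and from 1397 to 2097 FPKM in WT hearts, and skeletal muscle markers, 2 of 10 tested, from 47.7 to 126 FPKM in SRAKO hearts and from 65.7 to 148 FPKM in WT hearts.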
